A study of Danio rerio with 2 samples.

Results

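The genes described here are those of the Rab family as the zebrafish gene table names them. A gene was a member when its symbol was rab followed by a digit and it had at least 50 unique molecular identifiers (UMIs, each 1 captured transcript) in all cells. Of 79 such symbols among the 22077 genes of the table, 75 met the minimum. By name, 64 members are Rab GTPases and 11 are proteins that regulate or bind Rab GTPases, such as the Rab11 partners rab11fip1a to rab11fip4b and the exchange factors rab3ip and rab3il1. The family as a whole is therefore broader than pigment organelle traffic, and 5 measured members (rab27a, rab27b, rab32a, rab38b and rab38c) belong to the Rabs known for it.

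Both groups were Tg(crestin:mCherry;mitfa:GFP) embryos, in which the crestin promoter drives mCherry in neural crest cells and the mitfa promoter drives GFP in the pigment lineage. All embryos were treated with MoTP, a pro-drug that kills differentiated melanocytes, together with either the solvent DMSO or CVT-10216, an inhibitor of aldehyde dehydrogenase 2. Treatment began at 24 hours post fertilization (hpf), MoTP was washed out at 64 hpf, and cells were collected at 72 hpf, 8 hours after washout. Cells from the trunks of pooled embryos that carried GFP, mCherry or both were sorted, and 1 droplet library was made per condition (10x Chromium, 3′ tags). With 1 library per condition no difference could be set against replicate error, so no p-value is given, and every interval is an exact 95% interval that covers counting error only.

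Rab proteins are small GTPases that mark the membranes of a compartment when bound to GTP and recruit the motors, tethers and fusion factors that act there. Pigment cells use this machinery to build and move lysosome-related organelles. In mammals Rab32 and Rab38 bring melanin-forming enzymes to the immature melanosome, with the BLOC-3 complex of HPS1 and HPS4 as their exchange factor, and Rab27a ties the mature melanosome to myosin Va through melanophilin. Zebrafish make 3 kinds of pigment cell, and the same family of proteins serves secretion in neurons and phagocytosis in macrophages.

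Cells were sorted computationally into 8 gates, each defined by at least 3 UMIs of exactly 1 gene. The pigment gate genes were dct (melanin synthesis, melanophores), gch2 (pteridine synthesis, xanthophores) and pnp4a (purine metabolism, iridophores). The other gate genes were phox2bb (enteric and autonomic neurons and their precursors), slc6a5 (a glycine transporter of spinal interneurons), mpeg1.1 (macrophages) and epcam (epithelium). The pnp4a cells were divided into those with at least 2 UMIs of the iridophore gene fhl2b and those with 0. The 11283 cells comprised 4488 of DMSO and 6795 of CVT-10216, and 7198 (63.8%) fell in a gate, 2448 reached none, 1585 reached several and 52 had exactly 1 fhl2b UMI. Gates held between 36 cells (dct, CVT-10216) and 1502 cells (gch2, CVT-10216), at median depths of 2938 to 16240 UMIs per cell, and 4 barcodes occurred in both libraries.

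The dct gate was small because 455 of the 584 cells with at least 3 dct UMIs also had gch2 and 130 also had pnp4a. All dct cells free of the 4 non-pigment gate genes (561 cells, 296 of DMSO and 265 of CVT-10216) are therefore given beside the gate of 94 dct-only cells, a choice made after the overlap was seen. Markers other than the gate gene were present in every gate, with summed levels of 3879 to 20030 CPM (UMIs per 1000000 UMIs of the gate). For the pigment gates, summed melanophore markers were at 15830 and 14550 CPM in the dct-only cells of DMSO and CVT-10216, summed xanthophore markers at 4042 and 3879 CPM in gch2 cells, and summed iridophore markers at 11970 and 11390 CPM in pnp4a cells with fhl2b. Pnp4a cells without fhl2b had less of the iridophore markers, at 6598 and 6535 CPM, of which apoda.1 made 4184 and 4202 CPM. Their fhl2a stood at 17.9 and 9.81 CPM against 441 and 224 CPM with fhl2b. Their ltk was alike, at 44.4 and 45.4 CPM against 43.0 and 48.2 CPM. Of the markers of other cell types, enteric ones were highest, at 9002 and 8667 CPM in slc6a5 cells of DMSO and CVT-10216. Most of this was elavl3 (3261 and 3091 CPM) and elavl4 (5617 and 5488 CPM), which are also spinal interneuron markers. Melanophore markers stood at 823 and 645 CPM in gch2 cells (7 of 8), of which mitfa made 518 and 469 CPM. Erythrocyte genes (4 of 4 detected) stood at 5919 CPM in mpeg1.1 cells and 3228 CPM in all dct cells of the CVT-10216 library, against 21.1 and 32.3 CPM in those of DMSO. Iridophore markers (6 of 6) stood at 707 and 1827 CPM in all dct cells of DMSO and CVT-10216, against 134 and 129 CPM in dct-only cells. The part of these markers in the Rab values was not tested. In every gate the members together took between 0.194% and 0.458% of UMIs.

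A member was called specific to a gate when its CPM was at least 4-fold the median of the other 7 gates in both libraries (DMSO and CVT-10216), with at least 20 UMIs in the gate in each. Gates with fewer than 3 UMIs of a gene were set to the level of 3 UMIs, so that folds of members that were nearly absent elsewhere are understated. By this rule 23 of 75 members (30.7%) were specific to at least 1 gate, against 20.8% of the 17397 genes with at least 50 UMIs. The 23 members comprised 20 GTPases. Thinning drew each cell down to 4000 UMIs and left out cells with fewer, so thinned values describe the deeper cells of a gate. Small gates can then miss the minimum of 20 UMIs through depth alone. In cells thinned to 4000 UMIs 10 members were specific (13.3%, against 10.4% of all genes). Of these, 9 were among the 23: rab1bb, rab3ab, rab3c, rab6bb, rab8b, rab27a, rab34b, rab42a and rab44. With gates of a single UMI 10 members were specific (13.3%, against 10.9% of all genes), all of them among the 23.

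The specific members fell into pigment, neuronal, macrophage and epithelial sets, as the heatmap of levels by gate shows. Of the members, 7 (9.33%, against 2.77% of all genes) were specific to phox2bb cells and 11 (14.7%, against 6.85%) to slc6a5 cells. Both gates shared 5 members. Pigment gates held 1 in dct-only cells (1.33%, against 0.586% of all genes) and 3 in gch2 cells (4%, against 2.37%). Pnp4a cells held 2 with fhl2b (2.67%, against 1.7%) and 3 without it (4%, against 2.07%). Macrophage cells held 3 (4%, against 3.65%) and epcam cells 2 (2.67%, against 5.91%). Those last 2 counts are not read as results about the family. By role, 4 of the 5 pigment organelle Rabs were specific to a gate, as were 3 of 6 secretory vesicle Rabs, 7 of 20 of the endoplasmic reticulum (ER) and Golgi, 3 of 13 of recycling and plasma membrane traffic, 3 of 6 others and 3 of 11 members that are not GTPases. None of the 9 early endosome Rabs and none of the 5 late endosome Rabs was specific under this rule. Here rab34b is counted with the ER and Golgi. The role groups are small, so their counts beside 20.8% of all genes are not read as results about the roles. Just inside the threshold lay rab41 in slc6a5 cells (4.02-fold in the lower library), rab32a in pnp4a cells with fhl2b (4.08-fold) and rab3ab in phox2bb cells (4.36-fold), and just outside it rab27b in pnp4a cells with fhl2b (3.98-fold), rab20 in gch2 cells (3.81-fold) and rab11fip3 in phox2bb cells (3.60-fold).

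**Figure D1:**
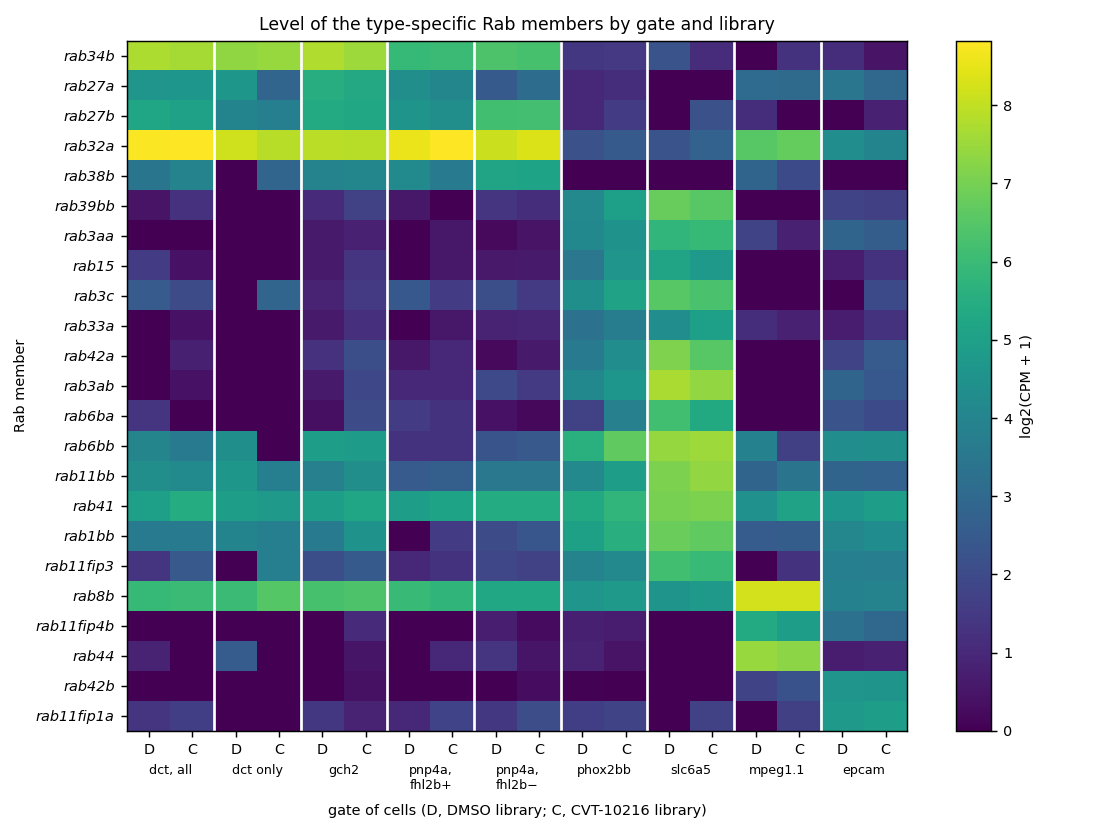
Level of the 23 type-specific members (rows) in each gate (columns, DMSO and CVT-10216 side by side), as log2(CPM + 1) from dark to bright; all dct cells are shown beside the dct-only gate. Pigment Rabs are bright in the left columns (rab32a up to 452 CPM), neuronal Rabs in the slc6a5 and phox2bb columns, and rab44 and rab8b in the mpeg1.1 columns.

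The member specific to all 4 pigment gates was rab34b, one of the zebrafish copies of Rab34, which in mammals acts in lysosome positioning, macropinocytosis and ciliogenesis. The dct-only cells had 163 CPM of rab34b in DMSO (95% interval 112 to 229, 33 UMIs) and 174 CPM in CVT-10216 (115 to 253, 27 UMIs), and all dct cells 211 and 197 CPM. The gch2 cells had 220 CPM (205 to 236) and 183 CPM (174 to 192). The pnp4a cells had 59.5 and 63.8 CPM with fhl2b and 80.5 and 75.6 CPM without it. In phox2bb, slc6a5, mpeg1.1 and epcam cells rab34b stayed between 0 and 3.81 CPM, so no non-pigment gate overlapped a pigment gate. In thinned cells it kept the call in gch2 cells and in pnp4a cells without fhl2b only. The thinned dct-only gate held 20 and 14 cells, too few to expect 20 UMIs at the levels above, so its lost call is not informative.

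Many pigment cells held at least 1 rab34b UMI. In cells thinned to 4000 UMIs it was found in 55.4% (50.4 to 60.4) and 46.6% (43.5 to 49.8) of gch2 cells and in 52.8% and 51.5% of all dct cells, in DMSO and CVT-10216, against 0.843% and 0.530% of phox2bb cells. Without thinning, the shares in phox2bb cells were 3.83% and 3.87% at median depths of 15580 and 16010 UMIs, and those in gch2 cells 62.9% and 56.7% at 4699 and 5100 UMIs. Whether the low share in phox2bb cells was background or low expression was not tested.

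Its paralog rab34a did not set pigment cells apart: it had 14.0 and 11.97 CPM in phox2bb cells, 14.3 and 13.2 CPM in epcam cells and 4.81 and 5.25 CPM in gch2 cells. Which copy supplied most of the family's UMIs therefore differed between gates. In gch2 cells rab34b made up 97.9% (96.6 to 98.8) and 97.2% (96.3 to 97.9) of the UMIs of both copies, and in all dct cells 97.5% and 96.3%. In phox2bb cells it made up 10.7% (7.97 to 13.9) and 12.9% (8.96 to 17.7), and in epcam cells 8.00% and 2.70% of 25 and 37 UMIs. Shares of paralogs rest on the 3′ tags assigned to each copy, and misassignment between copies of like sequence was not tested.

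Among the Rabs known for melanosomes, rab32a was high in all pigment gates. It reached 441 and 452 CPM in all dct cells, 374 CPM (348 to 402) and 443 CPM (414 to 472) in pnp4a cells with fhl2b, 278 and 331 CPM in pnp4a cells without it, and 239 and 235 CPM in gch2 cells, for DMSO and CVT-10216. The dct-only cells had 287 and 232 CPM, below pnp4a cells with fhl2b in both libraries. Macrophages carried it too, at 91.8 and 106 CPM, whereas epcam cells had 19.3 and 14.7 CPM and phox2bb and slc6a5 cells at most 5.87 CPM. All pigment gates thus lay above all other gates in both libraries. The call of rab32a as specific to pnp4a cells with fhl2b rested on 4.08-fold and was lost with TMM scaling (trimmed mean of M-values; log2 fold 1.88, under the threshold of 2) and in thinned cells (1.80).

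The rab32a transcript was present in most pigment cells. After thinning, 73.6% and 77.5% of all dct cells and 74.8% (66.5 to 82.0) and 79.7% (71.3 to 86.5) of pnp4a cells with fhl2b had at least 1 rab32a UMI, and 35.3% and 35.1% of mpeg1.1 cells did. Phox2bb cells, given for comparison, had it in 1.35% and 2.25%, and 0 of 40 and 0 of 76 thinned slc6a5 cells had it. Unthinned, the shares were 96.3% and 97.5% in pnp4a cells with fhl2b and 7.02% and 9.15% in phox2bb cells, at median depths of 14090 and 16240 and of 15580 and 16010 UMIs. The share in macrophages exceeded that in phox2bb cells beyond counting error.

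The related rab38b had its highest level in pnp4a cells without fhl2b, at 34.7 CPM (30.1 to 39.7) in DMSO and 33.9 CPM (31.5 to 36.4) in CVT-10216. Cells with fhl2b had 17.4 and 11.2 CPM, gch2 cells 14.4 and 15.4 CPM, and all dct cells 9.86 and 14.3 CPM. In the dct-only gate rab38b had 0 UMIs in DMSO and 1 in CVT-10216 (0 and 6.44 CPM), where 3 UMIs would be 14.9 and 19.3 CPM. A level like that of gch2 cells would thus be fewer than 3 UMIs in each library. Whether dct-only cells differed from gch2 cells was not tested. No rab38b UMI occurred in phox2bb cells of either library, where 3 UMIs would be 0.105 and 0.166 CPM. Its scarcer paralog rab38c followed the same cells, with 4.69 and 6.17 CPM in pnp4a cells without fhl2b, 2.42 and 1.46 CPM with it and 3.96 and 4.07 CPM in gch2 cells, and 0 in phox2bb, slc6a5 and mpeg1.1 cells.

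The 2 copies of Rab27, whose mammalian counterparts hold melanosomes and secretory granules at the cell cortex, peaked in different pigment cells. Xanthophore-gated gch2 cells had 44.1 CPM of rab27a (37.5 to 51.6) in DMSO and 39.0 CPM (35.1 to 43.2) in CVT-10216, which was 5.93-fold and at least 5.31-fold the median of the other gates. All dct cells had 23.3 and 23.7 CPM of rab27a, pnp4a cells with fhl2b 19.3 and 15.6 CPM, and pnp4a cells without fhl2b 4.69 and 7.74 CPM. The paralog rab27b ran the other way among pnp4a cells, with 70.3 CPM (63.8 to 77.4) and 72.7 CPM (69.1 to 76.3) without fhl2b against 22.7 and 19.5 CPM with it. It stood at 41.0 and 37.8 CPM in gch2 cells and at 35.5 and 32.4 CPM in all dct cells.

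As a share of both Rab27 copies, rab27b made up 93.8% (91.1 to 95.8) and 90.4% (88.9 to 91.7) of UMIs in pnp4a cells without fhl2b. Its share was 54.0% (43.0 to 64.8) and 55.6% (43.4 to 67.3) in pnp4a cells with fhl2b, 48.2% and 49.2% in gch2 cells and 60.4% and 57.8% in all dct cells. The intervals of the pnp4a cells without fhl2b overlapped none of these. Outside the pigment gates both copies were scarce: rab27b did not exceed 3.52 CPM and rab27a 9.95 CPM. In thinned cells rab27b was found in 23.0% and 24.6% of pnp4a cells without fhl2b and in 0.758% and 1.33% of phox2bb cells.

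**Figure D2:**
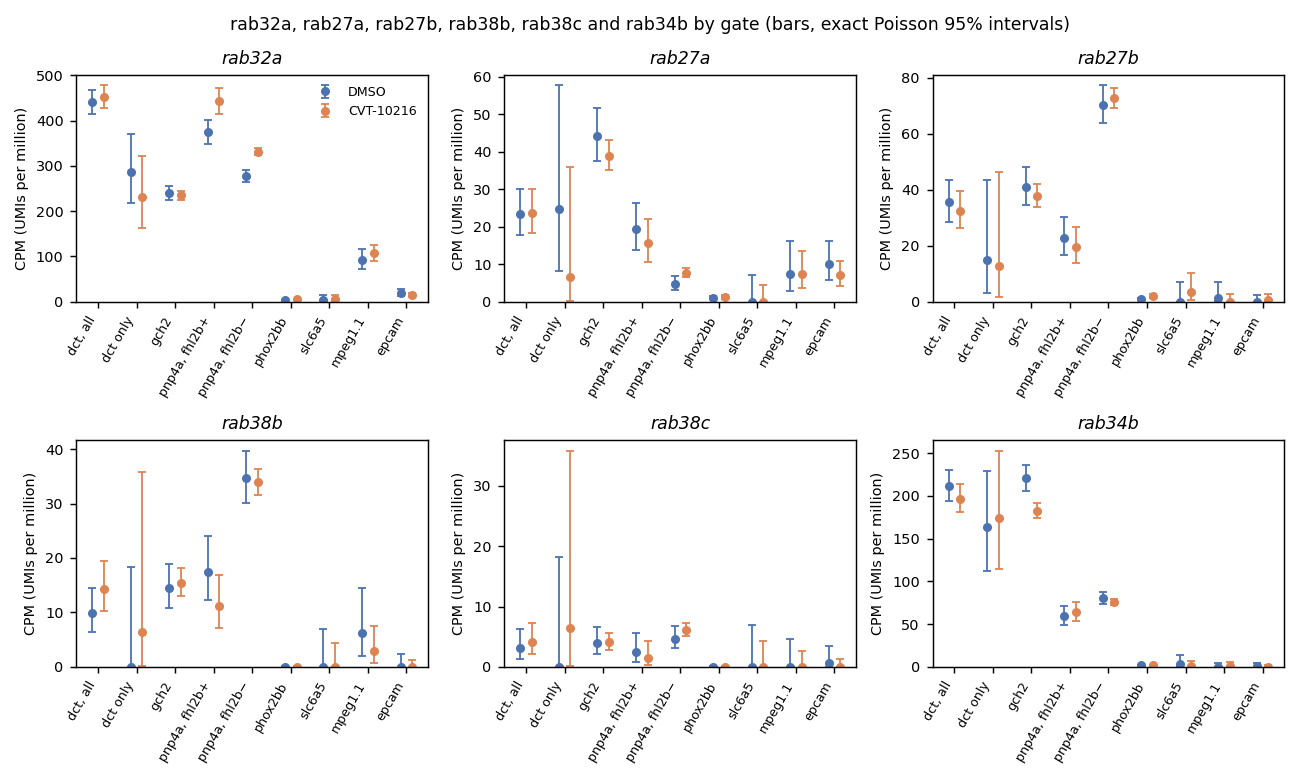
CPM (linear axes from 0) of 6 Rab genes in each gate, DMSO in blue and CVT-10216 in orange, with exact Poisson 95% intervals as bars. For rab34b the pigment gates stand at 59.5 to 220 CPM and all others at or under 3.81 CPM, and rab27a and rab27b peak in different gates.

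The pigment gates were then set against all others in a stricter way, by asking for which members every pigment gate lay above every other gate in both libraries, a rule chosen after the values were seen and applied with all dct cells as the melanophore gate. It held for 9 of 75 members (12%), against 1.53% of all genes. Beside rab27b, rab32a, rab34b, rab38b and rab38c the 9 were rab1ab, rab7a, rab9a and rab12. The rule had no minimum of UMIs, and rab38c passed it on few. Its lowest pigment value was 1.46 CPM, the level of 3 UMIs in pnp4a cells with fhl2b of CVT-10216. Its highest other value was 0.622 CPM, in epcam cells of DMSO. For rab38b these values were 9.86 CPM and 6.20 CPM, the latter in mpeg1.1 cells of DMSO. With the dct-only gate the rule held for 6 members, which drops rab12, rab38b and rab38c. With that gate and TMM scaling it held for 5 members (1.08% of all genes), of which rab9a, rab27b, rab32a and rab34b were among the 6. The reverse order held for 0 members. The shares of all genes for the reverse order and for the dct-only gate in CPM are not given here.

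The late endosome and lysosome Rab rab7a, which drives fusion with lysosomes, lay between 170 and 266 CPM in pigment gates and between 39.8 and 151 CPM elsewhere. For rab9a, which returns cargo from late endosomes to the Golgi, the ranges were 12.2 to 31.1 CPM and 3.72 to 9.52 CPM. The ER-to-Golgi Rab rab1ab ranged from 437 to 930 CPM in pigment gates and from 96.2 to 362 CPM elsewhere, with macrophages the highest of the others. With TMM scaling and the dct-only gate, macrophages passed the lowest pigment gate for both rab7a (189 against 154 CPM) and rab1ab (455 against 346 CPM). The range of rab12, a Rab of recycling and lysosomal sorting, was 34.0 to 50.6 CPM against 2.48 to 26.6 CPM, while the dct-only cells of CVT-10216 had 25.7 CPM.

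All dct cells carried a further set. With them as the melanophore gate, rab7b and rab21 were specific to it as well as rab32a, rab27b and rab34b (5 members, 6.67%, against 2.23% of all genes). The second late endosome copy rab7b stood at 52.8 and 49.2 CPM in all dct cells, 5.09- and 4.81-fold the median of the other gates, and at 3.60 and 4.58 CPM in phox2bb cells, and the dct-only cells had 19.8 and 90.1 CPM. The endocytic Rab rab21 stood at 68.6 and 47.8 CPM there and at 8.68 to 32.0 CPM in the other 7 gates, but the dct-only cells had 39.6 CPM in DMSO and 6.44 CPM (1 UMI) in CVT-10216. Both were named after their values were seen.

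Iridophore-gated cells with and without fhl2b differed in more members than rab27b and rab38b. Of 33 members with at least 100 UMIs over both kinds of cell in each library, 1 was at least 1.5-fold higher with fhl2b in both libraries and 7 were at least 1.5-fold lower, against 15.6% and 13.5% of 5508 genes. The rule was set after the values were seen. Its minimum of UMIs left out scarcer members that also differed. With against without fhl2b, rab36 stood at 10.6 against 0.50 CPM in DMSO and 13.1 against 0.55 CPM in CVT-10216. Also left out were rab27a, higher with fhl2b (19.3 against 4.69 and 15.6 against 7.74 CPM), and rab38c, lower with it (2.42 against 4.69 and 1.46 against 6.17 CPM). The member that was higher was rab20, which in mammals acts in phagosome maturation, at 49.3 against 18.4 CPM in DMSO (log2 1.42, interval 1.02 to 1.82) and 35.5 against 14.1 CPM in CVT-10216 (log2 1.34, 0.95 to 1.71). It was also high in gch2 cells (102 and 98.1 CPM) and macrophages (70.7 and 64.6 CPM).

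Lower with fhl2b were rab1ab at 487 against 930 CPM in DMSO and 437 against 927 CPM in CVT-10216 (log2 −0.93 and −1.08), and the early endosome Rab rab5aa at 87.0 against 183 CPM and 66.7 against 195 CPM (log2 −1.07 and −1.55). The others were rab27b (log2 −1.63 and −1.90), rab38b (−0.99 and −1.60), the Golgi Rab rab33ba (−2.04 and −1.92) and the exchange factors rab3ip (−0.92 and −1.12) and rab3il1 (−1.16 and −0.91). The median of the 33 members was −0.27 and −0.25 against 0.06 and 0.10 over all genes. TMM scaling lowered the all-gene medians to −0.11 and −0.20 and those of the 33 members to −0.44 and −0.55. With it these 7 and 4 more members were lower, 11 of 33 in all (against 19.2% of all genes). Of the 33 tested, rab20 was again the only one that was higher (against 9.77%).

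**Figure D3:**
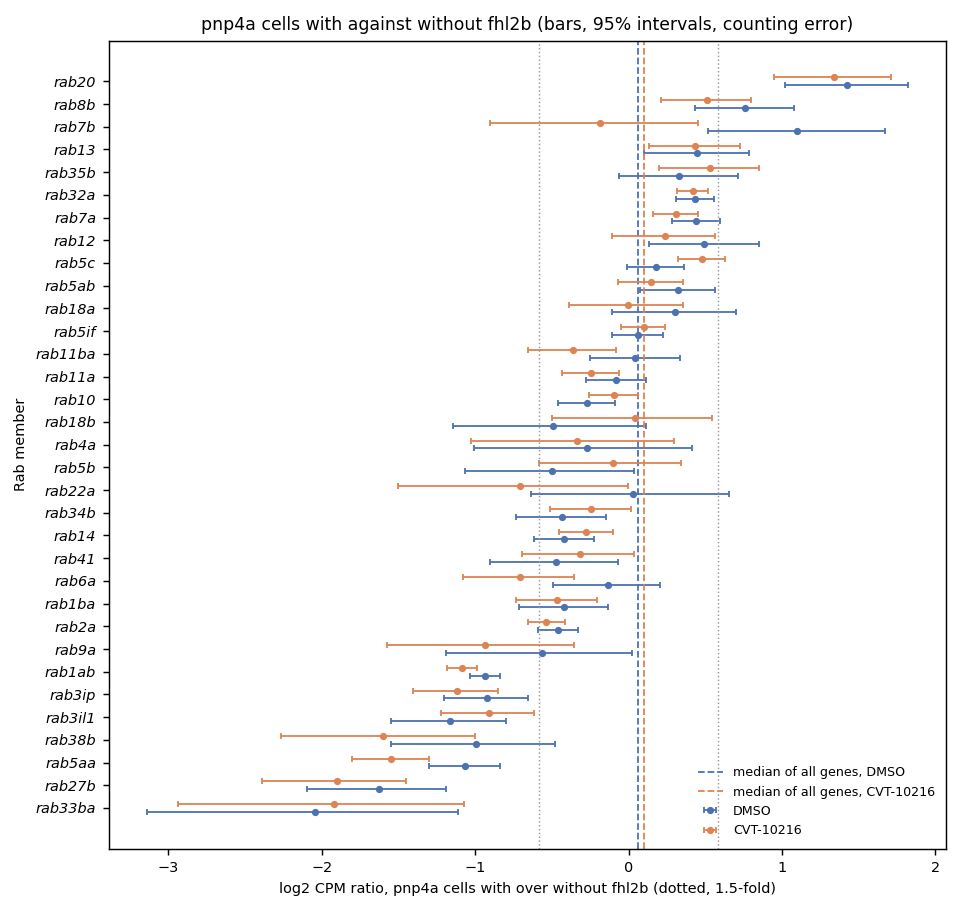
log2 ratio of CPM in pnp4a cells with over without fhl2b for 33 members (rows), in DMSO (blue) and CVT-10216 (orange), with exact conditional 95% intervals; dashed lines give the median of all genes and dotted lines 1.5-fold. Points of rab20 lie right of the dotted line (1.42 and 1.34) and those of 7 members left of it in both libraries.

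Secretory vesicle Rabs marked the neuronal gates. The Rab3 proteins prime synaptic and other regulated secretory vesicles, and slc6a5 cells had 206 and 168 CPM of rab3ab, 91.4 and 77.5 CPM of rab3c and 55.2 and 59.9 CPM of rab3aa in DMSO and CVT-10216. The phox2bb cells were next, with 16.2 and 24.0 CPM of rab3ab, 20.1 and 32.8 CPM of rab3c and 16.3 and 22.3 CPM of rab3aa. In pigment cells none of these exceeded 6.44 CPM. The copy rab3b had its highest level in slc6a5 cells (13.3 and 7.04 CPM, 7 and 6 UMIs) and stood at 0.489 and 0.441 CPM in the larger phox2bb gate. The copy rab3da was detected mainly in phox2bb cells (5.21 and 7.17 CPM), while rab3db did not exceed 1.95 CPM anywhere.

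Other neuronal members belonged to the Golgi and to recycling. In slc6a5 cells rab6bb, whose mammalian counterpart is the brain form of the Golgi Rab6, reached 173 CPM (140 to 213) and 183 CPM (156 to 214), which was 8.99-fold and at least 9.48-fold the median of the other gates. Its sister rab6ba stood at 70.5 and 39.9 CPM, rab39bb, a copy of the neuronal Rab39b, at 109 and 91.5 CPM, and rab41 at 130 and 135 CPM. The recycling Rab rab11bb stood at 135 and 166 CPM against 4.84 to 29.5 CPM in all other gates. The ER-to-Golgi Rab rab1bb stood at 111 and 101 CPM, the Rab11 partner rab11fip3 at 70.5 and 62.2 CPM and rab42a at 139 and 91.5 CPM.

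Phox2bb cells shared rab39bb (16.8 and 30.9 CPM), rab42a (11.4 and 18.9 CPM) and the 3 Rab3 genes above with slc6a5 cells, and were called for 2 more. These were rab15, an endosomal Rab best known from neural tissue, at 10.3 CPM (9.20 to 11.6) and 23.4 CPM (21.2 to 25.7), and rab33a at 8.80 and 12.1 CPM. Both were nevertheless higher in slc6a5 cells, at 34.3 and 25.8 CPM and at 19.1 and 30.5 CPM. They lacked the call there because their UMIs in that shallow gate numbered fewer than 20 in at least 1 library. After thinning, rab3ab was found in 47.5% and 44.7% of slc6a5 cells, in 7.84% and 10.9% of phox2bb cells and in 0.252% and 0.499% of gch2 cells.

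Within families the copies that supplied the UMIs differed between neuronal and pigment gates. Of the UMIs of the 4 rab1 genes, rab1bb held 28.7% (22.6 to 35.5) and 31.5% (26.04 to 37.4) in slc6a5 cells and 14.2% and 17.4% in phox2bb cells, against 0% to 3.23% in the gch2, pnp4a and all dct cells. The share of rab6a among the 3 rab6 genes was 19.5% and 20.5% in slc6a5 cells and 46.5% and 30.3% in phox2bb cells, but 92.9% and 92.0% in pnp4a cells with fhl2b and 92.1% in both libraries without it. Xanthophore-gated gch2 cells lay between, at 56.5% and 56.0%. Among the rab11 genes rab11bb held 35.3% and 39.9% in slc6a5 cells and 2.34% to 12.9% in every other gate. Within the rab5 genes rab5aa held 42.5% and 43.3% in pnp4a cells without fhl2b and 17.3% to 29.6% in every other gate. In all, 18 families had at least 2 measured members, which together numbered 47.

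**Figure D4:**
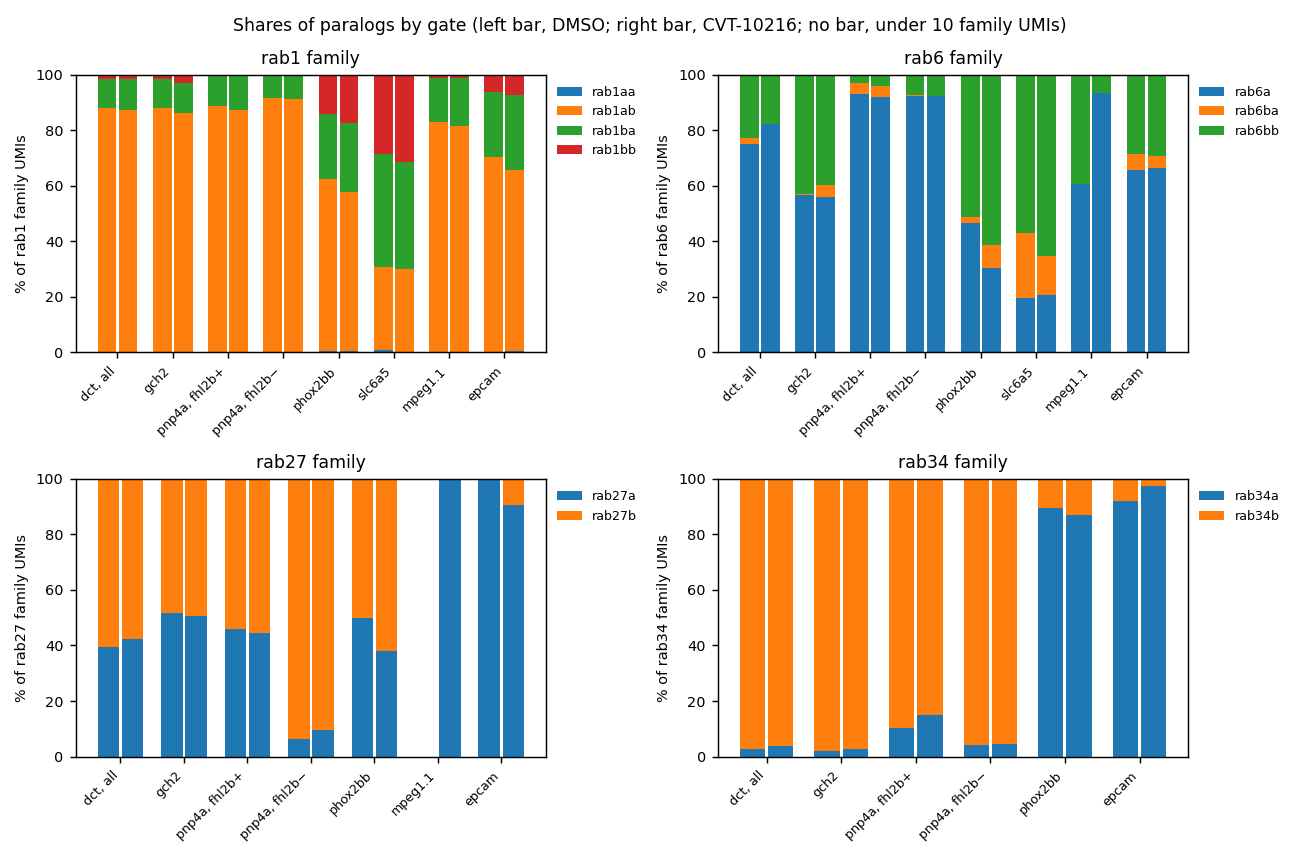
Share of each paralog in the UMIs of the rab1, rab6, rab27 and rab34 families (stacked to 100%) by gate, DMSO left and CVT-10216 right; gates with under 10 UMIs of the family have no bar. The bars of rab34 change from 97.9% rab34b in gch2 cells to 10.7% in phox2bb cells (DMSO), and rab27b fills 93.8% in pnp4a cells without fhl2b.

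Macrophage-gated cells were marked by rab44, a large atypical Rab known from granule-bearing and bone-resorbing cells of mammals, at 174 CPM (146 to 205) and 155 CPM (135 to 177) against at most 4.95 CPM (1 UMI, dct-only cells of DMSO) in any other gate. The second macrophage member was rab8b, a Rab of traffic to the plasma membrane, at 298 CPM (261 to 338) and 294 CPM (266 to 325), 8.08- and 7.77-fold the median of the others. The third was the Rab11 partner rab11fip4b, at 40.9 and 30.1 CPM. In thinned cells rab44 was found in 41.2% of mpeg1.1 cells in both libraries and in 0.169% and 0.133% of phox2bb cells. Epcam cells were marked by rab42b (23.0 and 22.8 CPM, at most 3.67 CPM elsewhere) and by rab11fip1a (25.5 and 29.7 CPM, at most 3.27 CPM elsewhere).

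Of the remaining roles, the members with most UMIs are given here, and other members of the same roles, such as rab12 and rab20 above, varied more. The early endosome Rabs rab5c and rab5aa spanned 96.5 to 317 CPM and 55.1 to 195 CPM over the 8 gates of both libraries. The highest gate was 3.13- and 1.83-fold the lowest for the exocytic Rab rab10 and 3.05- and 2.63-fold for rab14, in DMSO and CVT-10216. The Golgi Rab rab2a was 2.90- and 3.32-fold higher in its highest gate (slc6a5 cells in DMSO, phox2bb cells in CVT-10216) than in macrophages. Of the members with at least 5 UMIs in every gate, the most even was rab11a, the recycling Rab, at 110 to 183 CPM in DMSO and 120 to 212 CPM in CVT-10216. Of the members outside the GTPases, rab5if spanned 54.5 to 214 CPM and rab3ip 0 to 124 CPM. In pigment gates rab3ip stood at 56.0 to 124 CPM, a range that held slc6a5 cells too (72.4 and 62.2 CPM). It had 30.9 and 38.9 CPM in phox2bb cells, 9.95 and 11.4 CPM in epcam cells and 0 and 2.20 CPM in macrophages. Among the other Rabs rab40c spanned 0 to 38.1 CPM.

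The genes that load, activate or tether these Rabs were read from lists of 77 symbols, of which 66 were measured. Of the 66, 17 (25.8%) were specific to a gate, beside the 20.8% of all genes. Of the 17, 14 were specific to a pigment gate. Over all genes the shares were 0.586% for dct-only cells, 2.37% for gch2 cells and 1.7% and 2.07% for pnp4a cells with and without fhl2b. A share of all genes for any pigment gate is not given here. Both subunits of the BLOC-3 exchange factor were called in an iridophore gate. Its hps1 stood at 244 CPM in both libraries in pnp4a cells without fhl2b. The other pigment gates had less hps1: 117 and 108 CPM in all dct cells, 94.05 and 45.1 CPM in dct-only cells, 54.3 and 48.9 CPM in gch2 cells and 49.3 and 51.6 CPM in pnp4a cells with fhl2b. No non-pigment gate exceeded 13.6 CPM. The other subunit hps4, named beyond the rule, stood at 52.7 and 63.8 CPM in pnp4a cells with fhl2b, but dct-only cells had as much hps4 in DMSO (54.5 and 45.1 CPM from 11 and 7 UMIs, too few for a call). In pnp4a cells without fhl2b the adaptor subunit ap3m1 also stood high, at 203 and 204 CPM, and the myosin myo5b at 361 and 389 CPM. The BLOC-1 subunit bloc1s4 stood at 264 and 236 CPM in pnp4a cells with fhl2b.

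Of the Rab27 tethers and motors 9 of 15 were specific to a gate, beside 20.8% of all genes, and their gates differed. Melanophilin mlpha, the link from Rab27 to myosin Va, stood at 352 and 348 CPM in dct-only cells and at 232 and 251 CPM in gch2 cells, and at 34.7 and 30.02 CPM in pnp4a cells without fhl2b. The second melanophilin mlphb stood at 95.9 and 99.8 CPM in gch2 cells and 68.2 and 71.1 CPM in pnp4a cells with fhl2b. The granule tether sytl2b was at 250 and 330 CPM in pnp4a cells with fhl2b. Outside pigment cells myrip (93.3 and 98.6 CPM) and the Rab3 and Rab27 exchange factor madd (101 CPM in both libraries) were specific to slc6a5 cells, and unc13d, which primes lytic granules in mammals, to mpeg1.1 cells (33.5 and 31.6 CPM). The other lists gave 1 of 9 for BLOC-1, 1 of 2 for BLOC-2, 2 of 5 for AP-3, 2 of 4 for Rab32 and Rab38 effectors, and 0 of 7 for HOPS and relatives, 0 of 6 for prenylation and escort, 0 of 9 for late endosome and lysosome effectors and 0 of 7 for GTPase-activating proteins of melanosome Rabs. These lists are small, so their counts beside 20.8% of all genes are not read as results about the lists. At a 1.5-fold difference between CVT-10216 and DMSO 9 of 197 pairs of list gene and gate were counted, of which 7 were higher with CVT-10216, all in phox2bb cells, and 2 lower (4.57% of the pairs, against 9.53% of all gene and gate pairs).

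CVT-10216 and DMSO were compared within each gate among genes with at least 100 UMIs in it over both libraries. At a 1.5-fold difference 13 of 234 member and gate pairs were counted (5.56%), 12 higher and 1 lower with CVT-10216, against 9.53% of all gene and gate pairs. Over the alternatives tried the count ranged from 4 of 234 at 2-fold (1.71%, against 3.43% of all gene and gate pairs) to 43 of 342 at a minimum of 30 UMIs (12.6%, against 17.55%). It was 24 of 328 with cells of several gates kept (7.32%, against 11.5%) and 5 of 160 with a gate minimum of 1 UMI (3.1%, against 10.5%). The share of all genes counted was 10.2% in dct-only cells, 8.37% in gch2 cells, 5.05% and 4.36% in pnp4a cells with and without fhl2b, 15.4% in phox2bb cells, 5.94% in slc6a5 cells, 7.02% in mpeg1.1 cells and 14.1% in epcam cells. No member was counted in the dct-only, pnp4a with fhl2b, mpeg1.1 or epcam cells, of 2, 24, 18 and 19 tested, and no member was counted in all dct cells either.

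In the pigment gates 2 members were counted. In gch2 cells rab1bb rose from 11.9 to 21.8 CPM (log2 0.88, 0.39 to 1.39; 1 of 44 members tested). The summed muscle markers rose there from 189 to 1150 CPM (6 of 6 genes with at least 3 UMIs in each library) and the erythrocyte markers from 42.4 to 439 CPM (4 of 4). The spinal interneuron markers rose from 86.5 to 247 CPM (5 and then 6 of 6). Most of that sum was elavl3 (39.6 and 109 CPM) and elavl4 (38.5 and 102 CPM), which are also enteric markers. The part of these markers in the value of rab1bb was not tested. In pnp4a cells without fhl2b rab27a rose from 4.69 to 7.74 CPM (log2 0.72, 0.14 to 1.36; 1 of 47 tested), where summed muscle markers stood at 44.4 and 377 CPM (6 of 6), and it was level between libraries (log2 −0.019) when cells of several gates were kept. In slc6a5 cells rab42a fell from 139 to 91.5 CPM (log2 −0.60, −1.08 to −0.12; 1 of 21 tested), where summed glia markers stood at 1324 and 547 CPM (4 of 5 in each library) and muscle markers at 87.6 and 604 CPM.

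The other 10 pairs were all in phox2bb cells, where 10 of 59 members rose (16.9%), against 14.6% of all genes that rose there. The Golgi Rab rab6ba rose most, from 2.24 to 13.5 CPM (log2 2.60, 2.19 to 3.02). The values were 10.3 and 23.4 CPM for rab15 (log2 1.18), 47.3 and 102 CPM for rab6bb (1.1), 16.8 and 30.9 CPM for rab39bb (0.88), 16.7 and 29.5 CPM for rab11bb (0.82), 20.1 and 32.8 CPM for rab3c (0.71), 7.93 and 13.3 CPM for rab39ba (0.75), 2.24 and 4.64 CPM for rab40b (1.05) and 11.4 and 18.9 CPM for rab42a (0.72). The smallest of the 10 rises was that of rab36, from 5.35 to 8.50 CPM (0.67, 0.34 to 1.0). The median member in this gate was at log2 0.25 and the median gene at 0.10, and TMM scaling moved the log2 ratios of this gate by −0.17 and those of gch2 cells by −0.12. With TMM the rises of rab3c (log2 0.54), rab36 (0.50), rab39ba (0.58) and rab42a (0.56) no longer reached 1.5-fold (log2 0.585), and the median member of this gate was at 0.086. The shift was the same for every gene of the gate, so the median gene fell as much and the gap between them was unchanged.

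Markers moved with these members, and their part was not tested beyond the split that follows. In phox2bb cells summed glia markers stood at 288 and 597 CPM in DMSO and CVT-10216 (5 of 5) and muscle markers at 31.1 and 151 CPM (6 of 6). Summed spinal interneuron markers stood at 1049 and 1881 CPM (6 of 6), but most of this was elavl3 and elavl4, which are also on the enteric list. There elavl3 stood at 599 and 882 CPM and elavl4 at 407 and 887 CPM, whereas slc32a1, gad1b and gad2 did not exceed 5.30 CPM. The vasoactive intestinal peptide gene vipb stood at 1544 and 2914 CPM. Cells with at least 3 elavl4 UMIs made up 38.7% (36.0 to 41.4) of phox2bb cells in DMSO and 54.9% (51.3 to 58.4) in CVT-10216, and those with 0 made up 43.5% and 29.9%. This split was added after the values were seen.

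Among phox2bb cells with elavl4, 6 of 55 members were counted as higher with CVT-10216, against 10.0% of all genes. There rab6ba stood at 4.60 and 19.4 CPM (log2 2.08, 1.66 to 2.51), rab15 at 19.6 and 34.8 CPM (0.83) and rab6bb at 96.1 and 155 CPM (0.68). Rab3c (34.9 and 46.8 CPM, 0.42) and rab42a (21.6 and 27.4 CPM, 0.35) were no longer counted. In these cells elavl4 itself was at 854 and 1367 CPM. Among cells without elavl4 1 of 37 members was counted, against 3.62% of all genes. It was neither rab6ba nor rab6bb, which had too few UMIs to be tested there. Still, rab6ba had 0 UMIs in DMSO and 9 in CVT-10216. The values of rab6bb were 1.52 and 5.72 CPM (log2 1.91, 0.90 to 2.96, from 15 and 22 UMIs). By contrast, rab3c, rab11bb and rab39ba were at log2 −0.056, −0.056 and −0.010. In between lay rab39bb (0.42), rab36 (0.36), rab15 (0.30), rab40b (0.19) and rab42a (0.11), whose intervals all held 0.

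**Figure D5:**
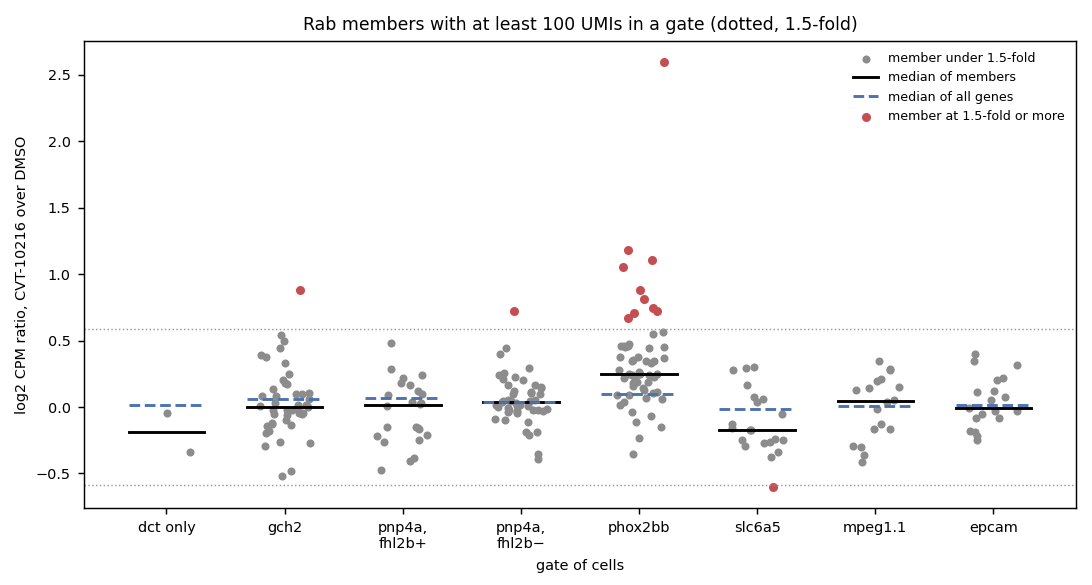
log2 ratio of CPM, CVT-10216 over DMSO, of each member with at least 100 UMIs in a gate (points, red at 1.5-fold or more), with the median of members (black) and of all genes (dashed blue). Of the 13 red points 10 lie in phox2bb cells, where the median member is at 0.25 and the median gene at 0.10.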

How the data were processed

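Per the labels and the study's methods, the authors ran Cell Ranger (versions 2.1.1 and 3.1.0 are named in the submitters' processing notes) on build GRCz11, aggregated both libraries and deposited UMI counts per gene and cell, not normalized; whether aggregation equalised depth is not given in the sources used here. The filtered table held 58976443 UMIs in the DMSO library and 86348575 in the CVT-10216 library (medians 8581 and 9487 per cell). The library of a cell was taken from its barcode suffix, and the suffix was assigned to a condition because the number of cells that carry it equals the number the methods give for that condition. Counts were summed per gate and library and divided by the gate's total (CPM) in Python 3.11.15 (numpy 2.4.6, scipy 1.17.1, pandas 2.3.3), with exact Poisson, conditional and Clopper-Pearson intervals. TMM factors came from edgeR 4.0.16 in R 4.3.3. Cells are not replicates, nothing was clustered and no doublet caller was run. The scripts were tested on simulated data.

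The members, gene lists and rules were chosen with earlier results of these data known. The text names every specific member, all pigment organelle and secretory Rabs, the highest and lowest CVT-10216 ratio per gate among those counted, the 2 members with most UMIs of every other role, and up to 10 specific list genes. Other genes were named after their values were seen. Alternatives were other gate minimums, keeping cells of several gates, TMM, equal weights for cells, thinning, leaving out the deepest 10% of cells, the unfiltered table, an fhl2b minimum of 1 and other thresholds, and, chosen after seeing the data, all dct cells and the elavl4 split.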

Additional observations from a re-analysis of the deposited data

Results flagged for a closer look

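Gene symbols of the family that the membership rule left out also carried signal, counted here as UMIs over both libraries in the gate where each was highest. Written in capitals in the table, RAB35 had 732 UMIs in pnp4a cells without fhl2b (27.0 and 26.3 CPM in DMSO and CVT-10216) and 514 in the other gates, RAB26 had 137 in phox2bb cells and 6 elsewhere, and RAB19 had 44 in pnp4a cells without fhl2b and 10 elsewhere. Of the symbols under 50 UMIs, rab25a had 19 and rab25b 12 in epcam cells (6 and 2 elsewhere), rab32b had 13 in epcam cells and 0 in the other gates, and rab11fip5a had 4 in slc6a5 cells and 9 elsewhere.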

How the results depend on the processing

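Against 23 specific members, the rule gave 10 with a gate minimum of 1 UMI (13.3%, against 10.9% of all genes) and 10 in thinned cells (13.3%, against 10.4%). It gave 39 at 2-fold (52%, against 37.6%) and 15 at 8-fold (20%, against 13.7%). Under the other alternatives it gave 18 (24%, against 14.45%) to 27 (36%, against 27.7%). Against 13 pairs at 1.5-fold with CVT-10216, there were 5 with a gate minimum of 1 (of which 4 were among the 13) and 24 with cells of several gates kept (8). There were 4 at 2-fold and 43 at a minimum of 30 UMIs, and the shares of these 4 settings are given above. Cells weighted equally gave 21 (9 among the 13), which was 8.97% against 11.3% of all pairs. Thinned cells gave 7 (5 among the 13), or 5.6% against 8.32%. TMM gave 11 (9 among the 13), or 4.70% against 8.81%. There were 4 with phox2bb cells lacking elavl4 in place of all phox2bb cells and 9 with those that had it, and the shares of all pairs for these 2 settings are not given here. The others gave 13 to 15. TMM also ended the calls of rab32a in pnp4a cells with fhl2b and of rab41 and rab1bb in slc6a5 cells. With fhl2b, 11 members were lower under TMM against 7. Values near 0 took the other sign for rab27a in pnp4a cells without fhl2b (log2 −0.019 with cells of several gates kept) and, in phox2bb cells without elavl4, rab11bb (−0.056), rab3c (−0.056) and rab39ba (−0.010), whose 95% intervals all held 0. Against the mean of the other gates in place of the median, rab34b in pnp4a cells with fhl2b turned to −0.20 and, in phox2bb cells, rab39bb to −0.19, rab42a to −1.03 and rab3ab to −1.05, since that mean holds the gate where each was highest. The cause of the other differences was not tested. No paired analysis was possible because each condition has 1 library. Depth limits the dct-only and slc6a5 gates most, where 3 UMIs equal 14.9 and 19.3 CPM and 5.72 and 3.52 CPM.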
